A study of Mus musculus with 425 samples.

Results

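Members of a small group of mouse miRNAs that are made without the Microprocessor were followed through sperm and epididymis of mice in which the Microprocessor subunit Dgcr8 had been deleted. The group was chosen by name as the small RNA features Mir320_seq, Mir484_seq, Mir877_seq, Mir1839_seq, Mir1224_seq and Mir702_seq (called Mir320 and so on here), and all 6 were found among 1123 miRNAs and 2343 small RNA features. Values are given as RPM, the reads of a feature per 1000000 reads of its library's table. Small RNA of 18 to 40 nucleotides was isolated from gels for these libraries. Testis sperm (before the epididymis) and cauda sperm (from its tail) were sequenced, as were the caput (head) and cauda (tail) of the epididymis itself.

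Every male carried Cre and at least 1 floxed Dgcr8 allele. In the Stra8 line, controls were Dgcr8+/fl; Stra8-iCre and conditional knockouts (cKO) were Dgcr8fl/fl; Stra8-iCre, with Cre driven by the promoter of Stra8, which acts in germ cells. In the Defb41 line, controls were Dgcr8+/fl; Defb41-iCre and cKO were Dgcr8fl/fl; Defb41-iCre (Defb-iCre in the sperm labels), with Cre driven by a promoter of the epididymal epithelium. The controls are therefore heterozygous for the floxed allele, and a wild type group was not analysed here. The labels give neither strain nor age. In control and cKO order, the Stra8 line had 4 and 4 libraries of testis sperm, 4 and 4 of cauda sperm, 7 and 7 of caput, and 6 and 8 of cauda epididymis. The Defb41 line had 4 and 4 of testis sperm, 8 and 8 of cauda sperm, 3 and 3 of caput, and 4 and 3 of cauda epididymis. No label ties the libraries of a group to different animals. The p-values thus rest on the scatter among libraries, and that scatter may be technical.

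Most miRNAs begin as a hairpin in a long primary transcript. The Microprocessor, in which Dgcr8 holds the RNA and Drosha cuts it, releases the hairpin, Exportin 5 carries it to the cytoplasm and Dicer trims it to the mature miRNA. A few hairpins skip the nuclear cut. Mirtrons are short introns that are spliced out, opened by the debranching enzyme Dbr1 and folded into a hairpin that Dicer can use, and Mir877, Mir1224 and Mir702 are of this kind. The precursors of Mir320 and Mir484 are known, in mouse cells, to start at the 5′ end of the hairpin itself and to need Dicer but not Dgcr8, and that of Mir320 carries a cap and leaves the nucleus through Exportin 1. Mir1839 overlaps a small Cajal body RNA (scaRNA), a class of RNAs that guide changes of spliceosomal RNAs.

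The genome positions show how each precursor could be made and are given on GRCm38 (mm10). Mir877 (chr17:35960730-35960814, minus strand) is exactly intron 12 of 22 of Abcf1, an intron of 85 bases. Mir1224 (chr16:20604452-20604536, plus strand) is exactly the last intron of Vwa5b2, also of 85 bases. Mir702 (chr5:136991433-136991541, plus strand) has its first 9 bases in exon 13 of Plod3 and the rest in intron 13, which is 102 bases long, and its hairpin stops 2 bases short of the intron's end. Mir1839 (chr7:81529916-81529988, plus strand) lies in an intron of 1683 bases of the noncoding gene 2900076A07Rik. GENCODE vM21 places a scaRNA of 127 bases at chr7:81529855-81529981 on the same strand, which shares 66 of the 73 bases of the Mir1839 hairpin, so reads from the shared bases cannot be assigned to one or the other. Mir320 (chr14:70443510-70443591, plus strand) starts outside genes, 38 bases from Polr3d, which runs on the opposite strand. Mir484 (chr16:14159626-14159692, plus strand) is 347 bases from Marf1 in RefSeq and inside the longer Marf1 of GENCODE, in both on the opposite strand to that gene.

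The sequences of the 3 mirtron hairpins are shown because they display the intron ends from which the precursor is made. Capitals mark the first and last 2 bases of the host intron that lie within the hairpin (RefSeq, GRCm38.p6).
Mir877: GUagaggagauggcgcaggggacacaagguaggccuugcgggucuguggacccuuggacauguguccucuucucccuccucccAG
Mir1224: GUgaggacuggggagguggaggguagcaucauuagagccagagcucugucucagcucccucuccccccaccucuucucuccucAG
Mir702: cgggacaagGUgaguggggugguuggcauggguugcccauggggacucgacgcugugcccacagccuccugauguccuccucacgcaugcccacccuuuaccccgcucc
Mir877 and Mir1224 open with GU and close with AG, the splice site letters of an intron, whereas Mir702 has the GU after its exon bases and stops before the AG. Of 1005 mouse hairpins in the RefSeq table, 30 (2.99%) start with GU and end with AG.

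The mature sequences are shown because the seed, bases 2 to 8, sets which messages a miRNA pairs with. Capitals mark the seed (RefSeq, GRCm38.p6).
mmu-miR-484: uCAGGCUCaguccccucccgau
mmu-miR-1839-5p: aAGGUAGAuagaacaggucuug
mmu-miR-877-5p: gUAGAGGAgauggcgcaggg
mmu-miR-877-3p: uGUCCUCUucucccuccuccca
mmu-miR-1224-5p: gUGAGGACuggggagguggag
mmu-miR-1224-3p: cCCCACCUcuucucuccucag
mmu-miR-702-5p: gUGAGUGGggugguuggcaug
mmu-miR-702-3p: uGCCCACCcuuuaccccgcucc
The 8 mature sequences, from 5 members, have 8 distinct seeds, so no 2 of them share one. Mir320 had no entry in the reference used, so its sequence and seed are not shown. Among 1738 mature mouse sequences in the table, only the seed of miR-702-5p occurs in another miRNA, miR-3102-5p. In all 3 mirtrons the 5p arm begins at the first base of the intron, as the map of the host introns shows.

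**Figure D1:**
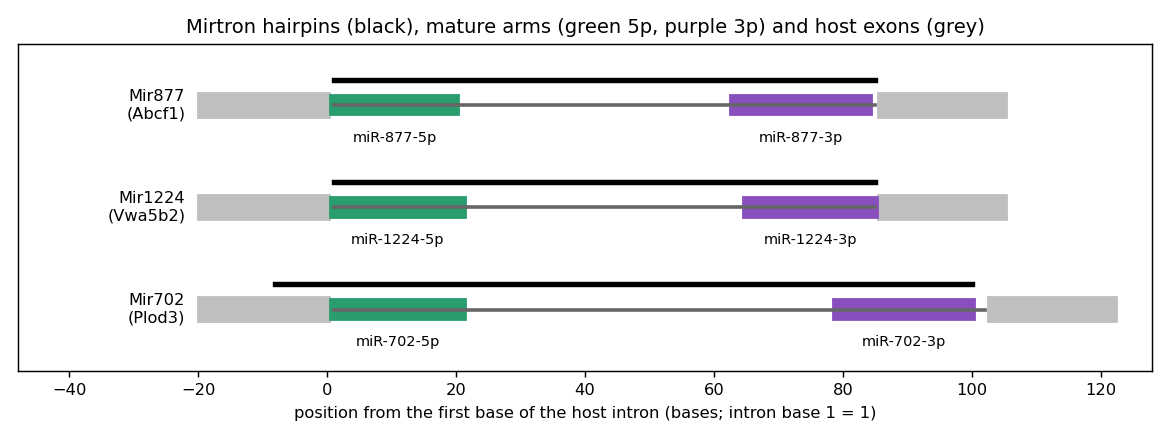
Position of the mirtron hairpins (black), their 5p arms (green) and 3p arms (purple) in the host introns of Abcf1, Vwa5b2 and Plod3, in bases from the first base of the intron; flanking exons (grey) are drawn in part. The 5p arms start at intron base 1, and the 3p arms end 1, 0 and 2 bases before the intron's last base in Mir877, Mir1224 and Mir702.

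The 81 libraries with a group held 615991 to 38690140 reads, with a median of 8884442. Replicates 5 to 8 of each genotype in Defb41 cauda sperm form a second library series. For these 8, the ratio of miRNA reads between the feature table and the table of RNA classes deposited beside it was 1.03 to 2.08, and for the other 73 libraries it was 1. Testis sperm libraries held miRNAs of other cells. The summed level of the blood miRNA list lay between 9041 and 35510 RPM in Stra8 control testis sperm and between 268 and 682 RPM in cauda sperm of the same males' group, with every marker of the germ cell, blood, epithelium and muscle lists detected in both.

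Mir320 and Mir1839 were the abundant members. The median over the 16 group means was 78.1 RPM for Mir1839_seq, 54.1 RPM for Mir320_seq and 8.02 RPM for Mir484_seq, against 1.71, 0.776 and 0.511 RPM for the mirtrons Mir877_seq, Mir1224_seq and Mir702_seq. In Stra8 control testis sperm, Mir1839 ranked 85 and Mir320 ranked 98 among 581 detected miRNAs. Small RNA libraries hold no length correction, and mature miRNAs are of nearly one length, so these are levels per read.

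Mir320 spanned the widest range of levels of the 3 non-mirtrons. Its highest group mean, 402 ± 170 RPM (SD, n = 3), was in Defb41 cKO caput and its lowest, 5.30 ± 1.16 RPM (n = 7), in Stra8 cKO caput. The control of the former had 88.4 ± 45.7 RPM (n = 3), and that of the latter 6.21 ± 2.13 RPM (n = 7). Cauda epididymis had 133 ± 25.2 RPM (n = 4) and 145 ± 11.9 RPM (n = 3) in Defb41 control and cKO, against 9.0 ± 4.13 RPM (n = 6) and 9.91 ± 4.91 RPM (n = 8) in the Stra8 line. The epididymis of the Stra8 line was thus low in Mir320 in every library, with 2.83 to 16.7 RPM, and no Defb41 epididymis library was below 53.6 RPM. Whether the lines were prepared together is not given in the sources used here, so line and library set cannot be told apart, and no test was run between the lines for tissue.

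Mir1839 ran the other way. Its highest group mean was 253.5 ± 71.7 RPM (n = 6) in Stra8 control cauda epididymis, followed by 238 ± 66.6 RPM (n = 8) in the cKO there and 215 ± 161 RPM (n = 7) and 212 ± 121 RPM (n = 7) in Stra8 cKO and control caput. Its lowest was 19.6 ± 17.8 RPM (n = 3) in Defb41 control caput, where replicate 2 held only 2 reads of it. Without that replicate the mean was 27.8 RPM. The cKO there had 86.3 ± 30.9 RPM (n = 3). Defb41 control and cKO cauda epididymis had 94.5 ± 24 RPM (n = 4) and 65.7 ± 6.47 RPM (n = 3). Within Stra8 epididymis, replicates from 5 on form a second library series, and the first series had the higher mean Mir1839. Control caput had 270.5 ± 134 against 134 ± 29.5 RPM, and control cauda 290.4 ± 55.1 against 180 ± 13.8 RPM. In control caput the series overlapped, at 140 to 393 and 103 to 162 RPM.

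Mir484 was lower, with group means from 3.03 ± 1.89 RPM (n = 7) in Stra8 cKO caput to 43.3 ± 68.5 RPM (n = 8) in Defb41 cKO cauda sperm. The mirtrons were at or near 0 in several groups. Mir1224 and Mir702 had 0 reads in all 4 Stra8 control testis sperm libraries, where 3 reads, the limit that a count of 0 allows, would be 0.416 to 0.757 RPM (counting error only). Their highest means, 9.63 ± 13.3 and 24.4 ± 52.2 RPM (n = 8), were in Defb41 cKO cauda sperm, as was that of Mir877 at 9.09 ± 11.3 RPM. These means rest on replicate 6 of the second library series, without which they were 5.19, 6.08 and 5.64 RPM for Mir1224, Mir702 and Mir877. Series 1 alone had 1.91, 1.41 and 1.48 RPM. For all 6 miRNAs, each neighbouring pair in the order of the 16 group means overlapped in range, as the plot of levels by library shows.

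**Figure D2:**
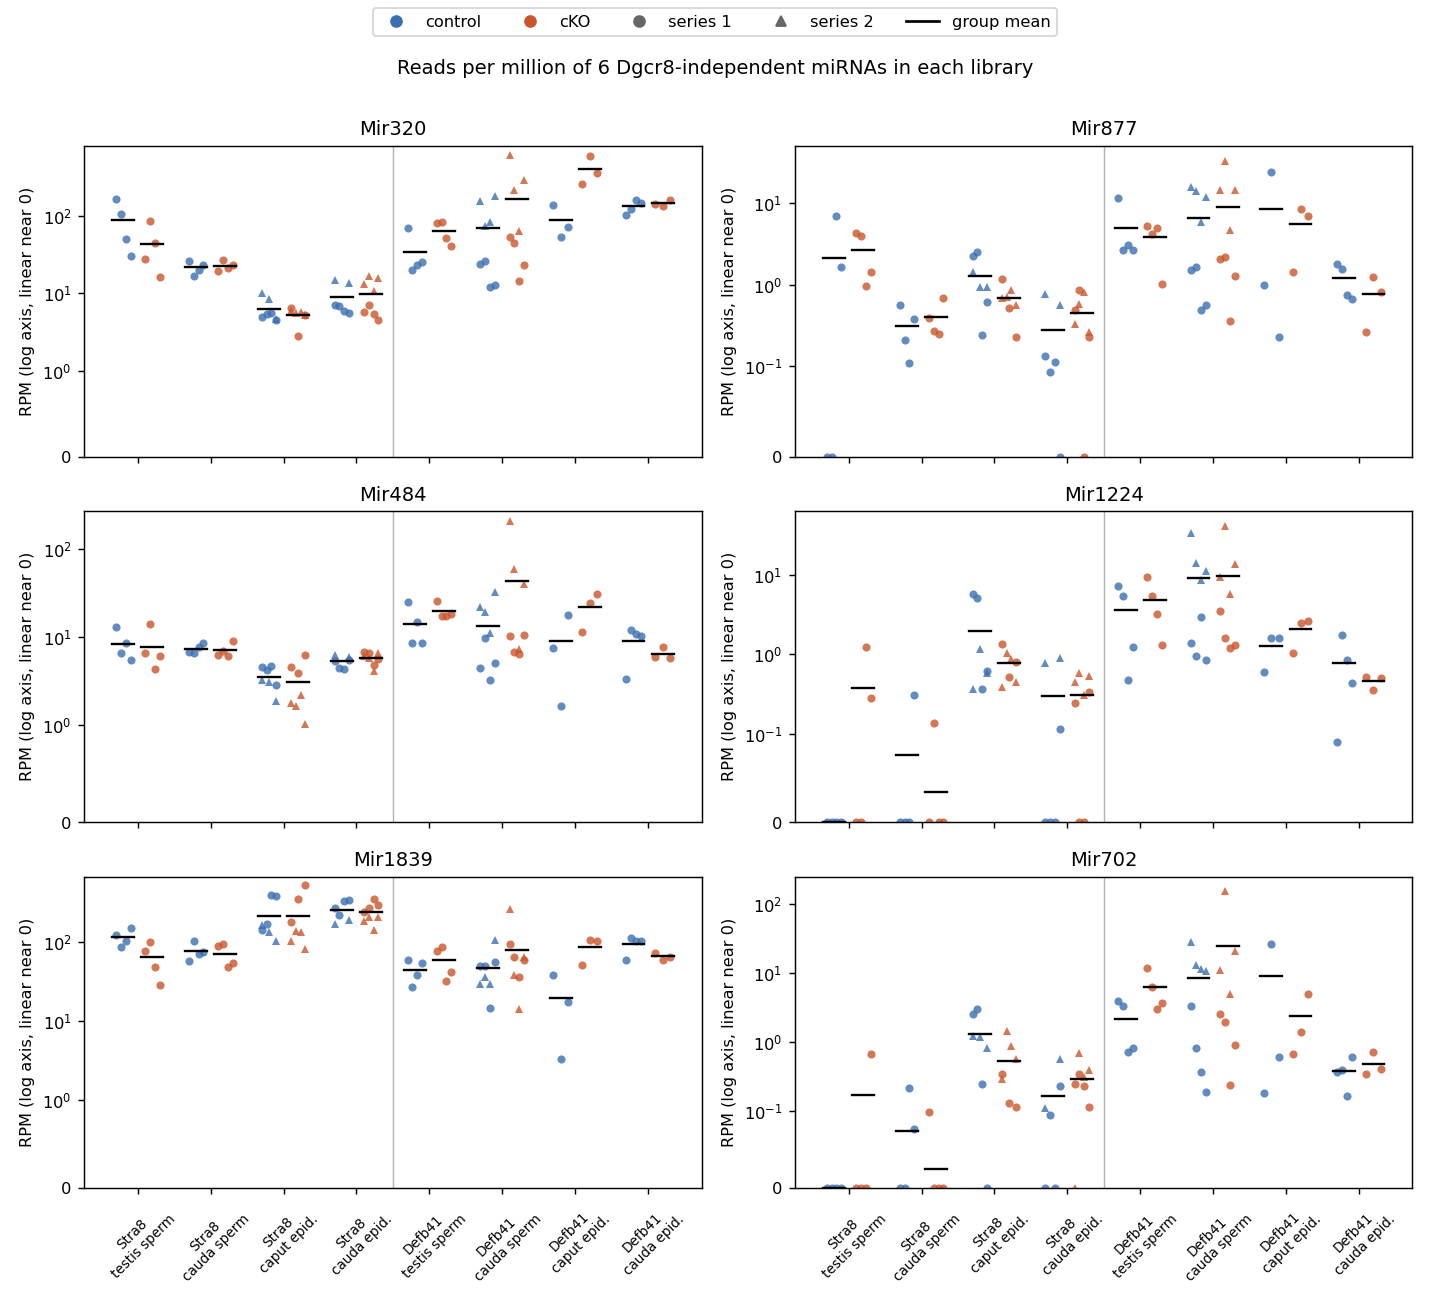
RPM (log axis, linear near 0) of the 6 miRNAs in each library of the 16 groups, with controls in blue, cKO in orange, circles for library series 1, triangles for series 2 and bars for group means. Mir320 is at 2.83 to 16.7 RPM in Stra8 epididymis, where Mir1839 is at 80.8 to 521 RPM, and series 2 of Defb41 cauda sperm stands above series 1 for the mirtrons.

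Testis sperm of the Stra8 line addressed the need of each small RNA for Dgcr8 in germ cells. With the table total as library size, edgeR called 0 of the 4 members with enough reads, and of 257 other miRNAs it called 77 as lower and 0 as higher. Mir320 was at 167, 107, 50.5 and 30.5 RPM in the 4 controls and at 28.2, 86.6, 44.9 and 16.1 RPM in the 4 cKO libraries. The 2 highest libraries were controls, and the ranges overlapped. The log2 difference was −1.02 (SE 0.60, edgeR adjusted p = 0.269).

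Mir484 was at 12.9, 6.53, 8.41 and 5.41 RPM in controls and 6.55, 14, 4.26 and 6.13 RPM in cKO. The groups overlapped, with a log2 difference of −0.11 (SE 0.55, edgeR adjusted p = 0.903). Mir1839 was at 121, 85.5, 103 and 152 RPM in controls and 76.7, 101, 47.8 and 28.7 RPM in cKO. Only cKO replicate 2 reached the controls, and the log2 difference was −0.86 (SE 0.39, edgeR adjusted p = 0.159).

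Mir877 was at 0, 0, 6.93 and 1.67 RPM in controls and 4.32, 4.00, 0.973 and 1.45 RPM in cKO. It was detected in every cKO library and in 2 of 4 controls, and the log2 difference of 0.28 had an SE of 1.24 (edgeR adjusted p = 0.886). Mir1224 had reads only in cKO replicates 3 and 4 (10 and 11 reads, 1.22 and 0.284 RPM), and Mir702 only in cKO replicate 4 (26 reads, 0.672 RPM). Neither passed the filter of at least 10 reads in 4 libraries. Depth differed, with 38690140 reads in cKO replicate 4 and 3965650 to 7207899 in the controls. In the controls 3 reads would be 0.416 to 0.757 RPM, so a level of 0.284 RPM could go unseen there.

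In that comparison 13.7% of the 1174 features tested were called, so 0 of 4 members is near that share. At an unadjusted p under 0.05, edgeR counted 1 of the 4 (Mir1839) and DESeq2 counted 0, with 0 called by DESeq2. The median log2 difference was −0.48 for the 4 members, −1.48 for the other 257 miRNAs and −0.60 for all features. Mir877 and Mir484 were above 92.6% and 86.4% of the other miRNAs in log2 difference, and Mir1839 and Mir320 above 68.9% and 66.1%.

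The sign of these differences depended on the denominator. The miRNAs as a class made up 19.5% ± 3.53 of the reads in controls and 7.51% ± 4.27 in cKO (n = 4 and 4). With the miRNA total as library size, the log2 differences of Mir320, Mir1839, Mir484 and Mir877 were 0.24, 0.57, 1.40 and 1.71, again with none called. Of 261 miRNAs 8.81% were called, and the other miRNAs then split into 10 higher and 13 lower in place of 0 and 77. The median of the 4 was then 0.98 and that of the other miRNAs −0.06. With TMM factors the median of all features moved to −0.21, and that of the 4 to −0.17, with the 190 calls among all features split into 55 higher and 135 lower in place of 8 and 153. The summed germ cell miRNAs lay at 2155 to 4968 RPM in cKO against 19400 to 25700 RPM in controls, the blood list at 3581 to 20040 against 9041 to 35510 RPM, and the muscle list at 2973 to 18820 against 11440 to 30960 RPM. Their part in the levels of the 6 was not tested. In bulk RNA, fewer cells of a type and less RNA per cell cannot be told apart.

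Cauda sperm of the same line gave closer values. Mir320 was at 26.4, 16.6, 20.3 and 23.5 RPM in controls and 19.5, 26.6, 21.3 and 23.3 RPM in cKO. Mir484 was at 6.63, 6.59, 7.61 and 8.49 RPM against 6.18, 6.89, 6.05 and 8.88 RPM. Mir1839 was at 57.2, 104, 71.4 and 74.4 RPM against 89.6, 93.1, 48.1 and 54.0 RPM. All 3 pairs of groups overlapped throughout.

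The log2 differences were 0.06 (SE 0.31) for Mir320, −0.07 (SE 0.29) for Mir484 and −0.11 (SE 0.40) for Mir1839, with edgeR adjusted p of 0.964, 0.952 and 0.952. None of the 3 tested was called (0 at an unadjusted p under 0.05 with edgeR or DESeq2, and 0 called by DESeq2), against 5.59% of 1091 features. Of 263 other miRNAs, 33 were called as lower and 2 as higher, with a median log2 difference of −0.48. With the miRNA total 0 were called as lower and 1 as higher. The 33 became 0 without control replicate 4 or cKO replicate 1 and 68 without control replicate 1, the extremes of the 8 fits without 1 library. The mirtrons were scarce: Mir877 was at 0.109 to 0.562 RPM in controls and 0.252 to 0.692 RPM in cKO, and Mir1224 and Mir702 had reads in 1 or 2 libraries of each group. The plot of changes in Stra8 sperm shows these members among the other miRNAs.

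**Figure D3:**
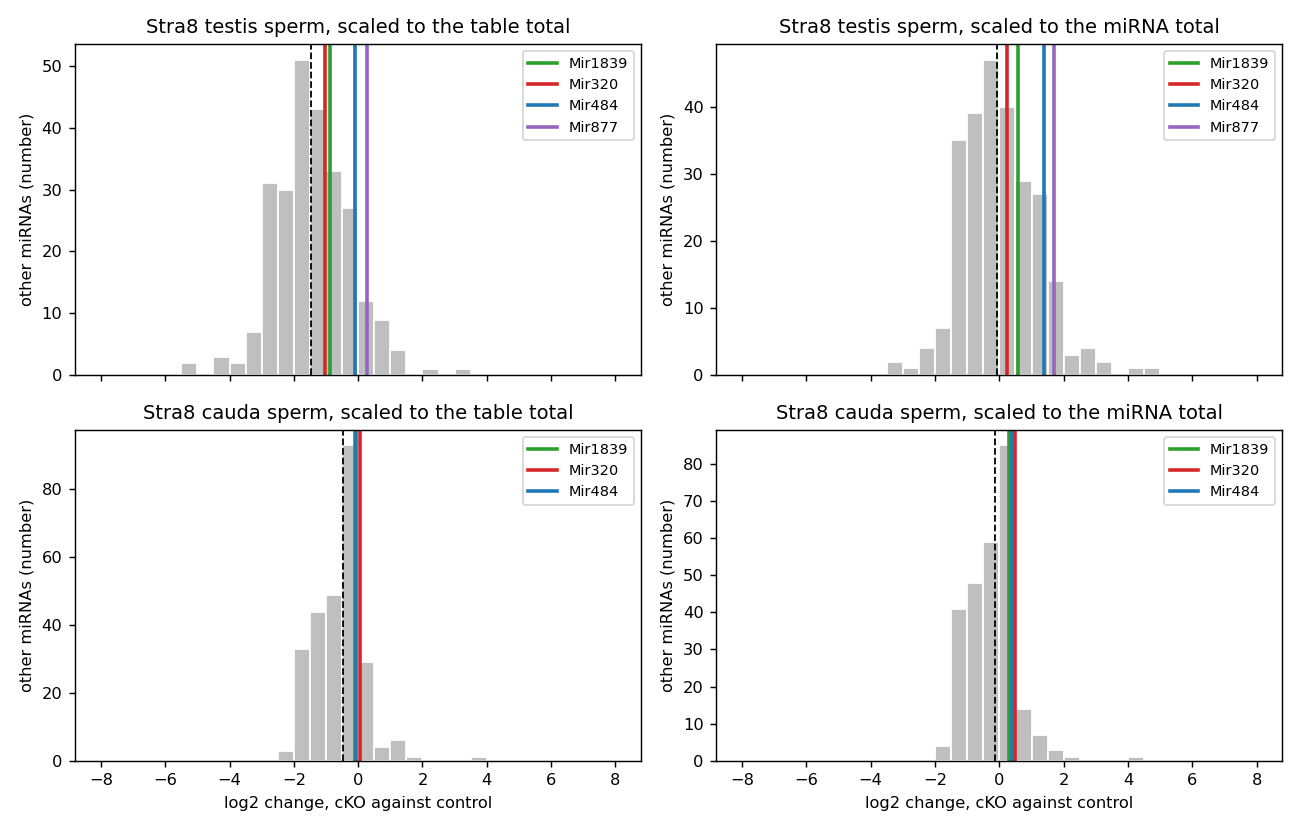
Number of other miRNAs (grey) by log2 difference between cKO and control in Stra8 testis sperm (top) and cauda sperm (bottom), scaled to the table total (left) or the miRNA total (right), with the median dashed and the tested members as coloured lines. In testis sperm scaled to the table total the members lie between −1.02 and 0.28, to the right of the median of −1.48.

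The share of all miRNA reads held by the 6 gives their weight in each library without the other RNA classes. Most of the reads of the 6 in Stra8 testis sperm were of Mir320 and Mir1839, and Mir1839 shares bases with a scaRNA. Control replicate 1, for example, had 664 reads of Mir320, 479 of Mir1839, 51 of Mir484 and 0 of each mirtron. The share in Stra8 testis sperm was 0.146%, 0.129%, 0.0937% and 0.0803% in controls and 0.162%, 0.154%, 0.156% and 0.169% in cKO. Every cKO library was above every control. The means were 0.112% ± 0.0304 and 0.160% ± 0.00693 (SD, n = 4 and 4). As a share of all reads the order was the other way, at 0.0215% ± 0.00591 in controls and 0.0118% ± 0.00638 in cKO.

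In Stra8 cauda sperm the share of miRNA reads was 0.0630% ± 0.00896 in controls and 0.0798% ± 0.0115 in cKO (n = 4 and 4), with overlapping libraries. Defb41 testis sperm had 0.0967% ± 0.0397 and 0.127% ± 0.0307 (n = 4 and 4), also overlapping. In Defb41 caput all 3 cKO libraries (0.0436% to 0.0913%) were above all 3 controls (0.0125% to 0.0245%). Defb41 cauda sperm had 0.167% ± 0.144 and 0.227% ± 0.224 (n = 8 and 8). In its series 1 the controls, at 0.0403% to 0.0595%, were above or within the cKO range of 0.0201% to 0.0469%. In the other epididymis groups the control and cKO means were close, at 0.0304% and 0.0266% in Defb41 cauda, 0.0365% and 0.0439% in Stra8 caput, and 0.0385% and 0.0388% in Stra8 cauda. A p-value for these sums was not computed, since the members were chosen with results known. Sets of other miRNAs were not compared in this way.

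**Figure D4:**
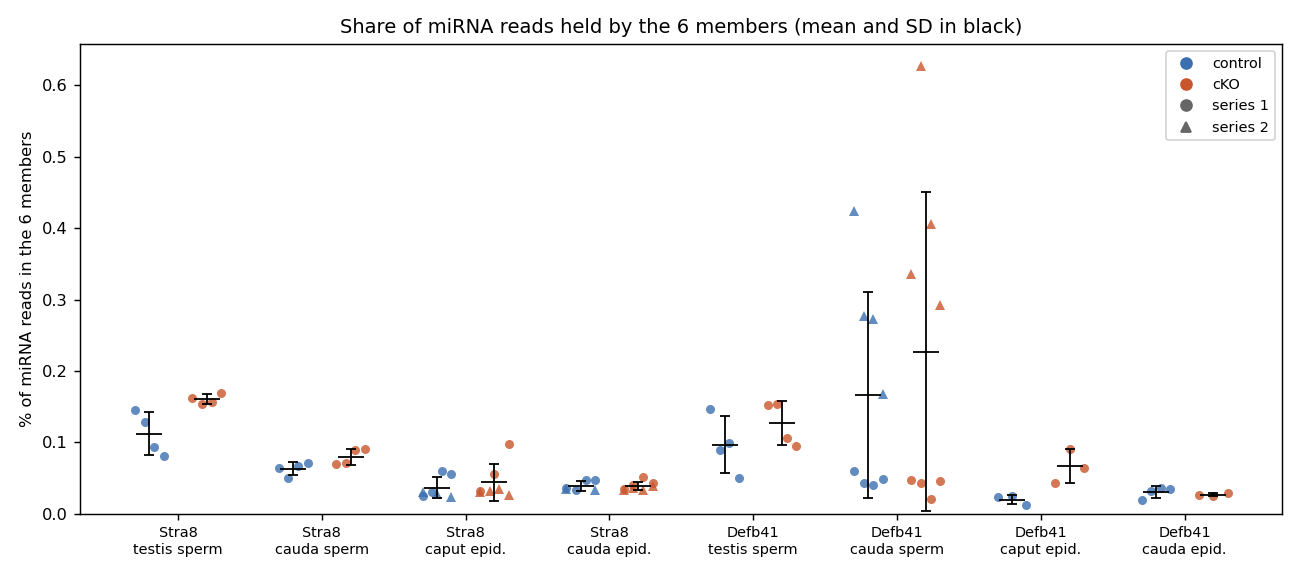
Percent of miRNA reads held by the 6 miRNAs in each library, by line and tissue, with controls in blue, cKO in orange, circles for series 1, triangles for series 2 and mean and SD in black. In Stra8 testis sperm the 4 cKO libraries lie at 0.154% to 0.169%, above the controls at 0.0803% to 0.146%. Most reads of the 6 there are of Mir320 and Mir1839.

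In the Defb41 line, where Cre acts in the epididymis, testis sperm serves as a comparison before the sperm meet that tissue. All 6 members had enough reads there. Mir320 was at 70.1, 20.01, 23.4 and 25.1 RPM in controls and 80.2, 83.9, 51.8 and 41.3 RPM in cKO, with control replicate 1 inside the cKO range and the other controls below it. The log2 difference was 0.89 (SE 0.46, edgeR adjusted p = 0.524). Mir702 was at 3.92, 3.30, 0.706 and 0.819 RPM in controls and 11.9, 6.35, 2.97 and 3.72 RPM in cKO, overlapping, with a log2 difference of 1.51 (SE 0.79, edgeR adjusted p = 0.531). Mir484, Mir1839, Mir1224 and Mir877 had log2 differences of 0.47, 0.41, 0.43 and −0.39. None of the 6 was called, against 1.5% of 2062 features, and none had an unadjusted p under 0.05 with edgeR or DESeq2.

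Cauda sperm of the Defb41 line asked which small RNAs of maturing sperm depend on Dgcr8 in the epididymis. Mir320 lay at 12.1, 49.5 and 178 RPM (lowest, median and highest of 8) in controls and at 14.6, 58.2 and 609 RPM in cKO. The library series differed more than the genotypes. Series 1 had 18.8 ± 7.35 and 33.7 ± 17.9 RPM in control and cKO, and series 2 had 123 ± 52.5 and 293 ± 230 RPM (n = 4 each).

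Mir484 lay at 3.18, 10.4 and 32.7 RPM in controls and 6.39, 10.3 and 206 RPM in cKO. Mir702 lay at 0.190, 7.08 and 28.6 RPM against 0.241, 3.75 and 152 RPM. Medians were nearly equal for Mir484 and lower in cKO for Mir702, and single cKO libraries (replicate 5 for Mir484, replicate 6 for Mir702) stood far above the rest.

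With the series in the model, the log2 differences were 1.25 (SE 0.54, edgeR adjusted p = 0.155) for Mir484, 1.05 (SE 0.48, adjusted p = 0.204) for Mir320, 0.98 for Mir702, 0.76 for Mir1839, 0.48 for Mir877 and 0.18 for Mir1224. None of the 6 was called by edgeR, against 12.3% of 2178 features. Mir320 and Mir484 had an unadjusted p under 0.05. TMM factors gave 2 calls, Mir320 (1.45) and Mir484 (1.70), and DESeq2 gave 3, Mir320 (1.41), Mir1839 (1.24) and Mir877 (0.71). The share of all features called with TMM or DESeq2 is not given here, so these calls are not set against it. Within series 1 alone the log2 difference of Mir320 was 0.84 and that of Mir484 0.60, and within series 2 alone 1.26 and 1.88, with none called in either. With the miRNA total none of the 6 was called, at 0.21 for Mir320, 0.34 for Mir484 and −0.10 for Mir1839. Per 1000000 miRNA reads the order in series 1 turned, with controls and cKO at 132 ± 36.1 and 117 ± 49.2 for Mir320, 37.3 ± 7.36 and 31.3 ± 13.6 for Mir484 and 283 ± 89.2 and 226 ± 71.4 for Mir1839 (n = 4 and 4).

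**Figure D5:**
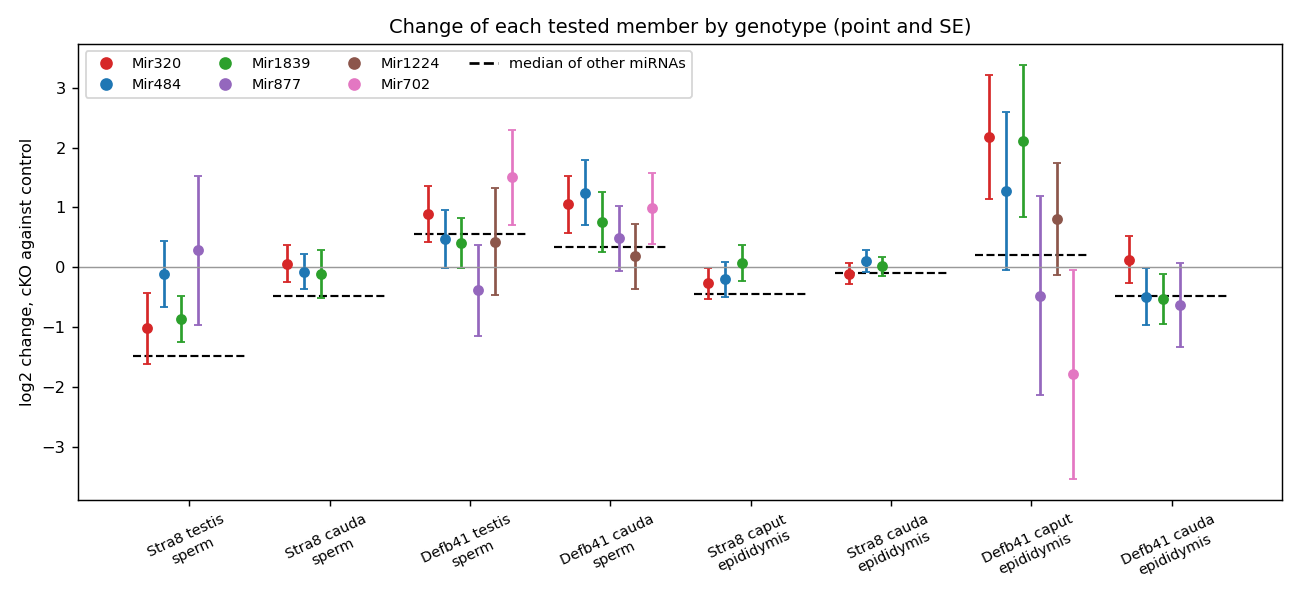
Log2 difference between cKO and control (point) with its SE (bar) for each tested member in the 8 tissues, by edgeR with the table total as library size, with the median of the other miRNAs dashed. No member was called in any tissue in these fits, and the dashed median is lowest in Stra8 testis sperm, at −1.48.

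Whether the genotype difference itself depended on site or line was tested as an interaction. Between testis and cauda sperm, 0 of 4 members were called in the Stra8 line (2.9% of 1276 features) and 0 of 6 in series 1 of the Defb41 line (14.5% of 2161), with 0 at an unadjusted p under 0.05 by edgeR or DESeq2 in either. Between the lines in testis sperm, 0 of 6 were called (16.2% of 2106), with 2 at an unadjusted p under 0.05 in edgeR and 2 in DESeq2. The largest of the non-mirtrons was Mir320, whose cKO against control log2 difference was lower in the Stra8 line than in the Defb41 line by a log2 value of −1.91 (SE 0.81, edgeR adjusted p = 0.121). It was called without Stra8 cKO replicate 2 (−2.47, adjusted p = 0.0404) or without Defb41 control replicate 1 (−2.51, adjusted p = 0.0283).

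Sperm are known to exchange small RNA with the epididymis on the way from testis to cauda. In Stra8 controls Mir320 fell from 88.9 ± 61.6 RPM in testis sperm to 21.7 ± 4.20 RPM in cauda sperm (n = 4 and 4), a log2 change of −2.03 (SE 0.50, edgeR adjusted p = 0.000844). All 4 cauda libraries, at 16.6 to 26.4 RPM, were below all 4 testis libraries, at 30.5 to 167 RPM, and the call held in all 8 fits without 1 library. Mir1839 (−0.59, SE 0.40) and Mir484 (−0.17, SE 0.52) were not called. So 1 of 3 was called, against 72.7% of 1178 features.

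That result depended on the scaling. With the table total the median of all features was −1.68, and with TMM factors it was 0.24, when 69.8% were called, with 440 higher and 382 lower in place of 226 and 630. Under TMM, Mir320 had a log2 difference of 0.04, and Mir484 (1.79) and Mir1839 (1.40) were called as higher in cauda sperm. With the miRNA total Mir320 was called as lower again (−1.82, adjusted p = 0.0385). The blood list was lower in cauda sperm, as given above, and the epithelium list was higher, at 1942 to 6921 against 228 to 1188 RPM; their part in this change was not tested.

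In Stra8 cKO, 0 of 3 members were called (78% of 1107 features), with 0 at an unadjusted p under 0.05 in edgeR and 2 called by DESeq2, Mir1839 and Mir484. Mir320 had a log2 difference of −0.95 (SE 0.44, edgeR adjusted p = 0.0637), and was called without testis replicate 1 (−1.11) or 4 (−1.23). Mir877 did not pass the filter with all libraries. Its cauda libraries, at 0.252 to 0.692 RPM, were below its testis libraries, at 0.973 to 4.32 RPM, and with no filter on low counts it was called (−2.69, edgeR adjusted p = 0.0109).

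In Defb41 controls (cauda sperm of series 1), 1 of 5 members was called (46.5% of 1745 features). Mir877, at 5.04 ± 4.49 RPM in testis sperm and 1.06 ± 0.612 RPM in cauda sperm (n = 4 and 4), fell by 2.25 on the log2 scale (SE 0.86, edgeR adjusted p = 0.0234). All cauda libraries, at 0.490 to 1.66 RPM, were below all testis libraries, at 2.66 to 11.8 RPM. The call held in 4 of 8 fits without 1 library and was lost without testis replicate 1 or cauda replicate 2, 3 or 4. It was also lost with TMM factors (−1.16, adjusted p = 0.0744). The blood list lay at 6624 to 16710 RPM in testis sperm and 299 to 5960 RPM in cauda sperm of both series, and the epithelium list at 32.5 to 90.6 and 251 to 3996 RPM; their part was not tested. In Defb41 cKO 2 of 6 were called (42.9% of 2042). Mir702 went from 6.24 ± 4.06 to 1.41 ± 1.04 RPM, a log2 difference of −2.14 (SE 0.77, edgeR adjusted p = 0.0228). Mir484 went from 19.6 ± 4.15 to 8.44 ± 2.21 RPM (−1.21, SE 0.50, edgeR adjusted p = 0.0485). The Mir702 call was kept in 5 of 8 such fits, all but those without cauda replicate 3 or 4 or testis replicate 1. The Mir484 call was kept in 2, those without cauda or testis replicate 4, and was lost with no filter on low counts (adjusted p = 0.0602) and with the replicate block (adjusted p = 0.0693).

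These Defb41 cKO calls depended on the scaling. With TMM factors Mir702 was at −1.10 and Mir484 at −0.14, with neither called, and Mir1839 was called as higher in cauda sperm (1.21, edgeR adjusted p = 0.0123). DESeq2 likewise called only Mir1839 of the 6 (1.35). With the miRNA total 5 of the 6, all but Mir1839, were called as lower. The median of all features was −1.16 with the table total and −0.05 with TMM. The calls among all features split into 186 higher and 690 lower, and into 337 and 439. The fit with the miRNA total held miRNAs only, so it is not a like comparison. Its median was −2.34, with 10 called as higher and 708 as lower. The blood list lay at 10390 to 22090 RPM in cKO testis sperm and 126 to 5002 RPM in cauda sperm of both series, and the epithelium list at 43.3 to 103 and 372 to 5510 RPM; their part was not tested.

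In the epididymis, deletion in germ cells was the comparison of the Stra8 line. Only Mir320, Mir484 and Mir1839 had enough reads. In caput their log2 differences were −0.27 (SE 0.26), −0.20 (SE 0.29) and 0.07 (SE 0.30), and in cauda −0.11 (SE 0.18), 0.11 (SE 0.18) and 0.02 (SE 0.16). None was called by edgeR in caput, where 0% of 1064 features were called and 103 had an unadjusted p under 0.05, or in cauda, where 1.95% of 1025 were called. No member had an unadjusted p under 0.05 in either with edgeR or DESeq2. Within series 1 and series 2 alone, the log2 difference of Mir484 in caput was 0.27 and −0.71, with neither called.

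In the Defb41 line Cre is driven by a promoter of the epididymal epithelium. Whether Dgcr8 was deleted in caput, in cauda or in both was not measured here. The messenger RNA libraries labelled as cKO caput of this line go against that label, as given with the host genes, and whether the small RNA libraries share this was not tested. In the libraries labelled caput, Mir320 was at 140, 53.6 and 71.6 RPM in controls and 258, 590 and 359 RPM in cKO. Mir1839 was at 38.5, 3.25 and 17.2 RPM in controls and 50.6, 105 and 103 RPM in cKO. For both, every cKO library was above every control, and in RPM no other member in any tissue had such a separation. Per 1000000 miRNA reads both still separated. On that scale, controls given first, Stra8 testis sperm separated in the same direction for Mir1839 (553 to 644 against 751 to 1073). It did so too for Mir484 (22.9 to 62.2 against 66.9 to 194), and Stra8 cauda sperm for Mir1839 (401 to 495 against 517 to 565). The share of all features that separate in this way was not computed, so the separations given here are descriptions only.

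The log2 differences were 2.18 (SE 1.04, edgeR adjusted p = 0.632) for Mir320 and 2.11 (SE 1.27, adjusted p = 0.632) for Mir1839. None of the 6 was called, as were 0% of 1406 features, of which 63 had an unadjusted p under 0.05, none of them a member. DESeq2 also called 0 of the 6. Control replicate 2 held 615991 reads. Its Mir877 (24.4 RPM) and Mir702 (26 RPM) rest on 15 and 16 reads, and its Mir1839 (3.25 RPM) on 2. Mir877 and Mir702 had log2 differences of −0.47 and −1.79 with that library and 3.12 and 2.59 without it. In the fits without 1 library the log2 difference of Mir1839 ran from 1.63 to 3.02. The summed muscle list lay at 26640 to 62870 RPM in control caput and 79730 to 166900 RPM in cKO caput. In control and cKO cauda it lay at 67960 to 313600 and 90830 to 188800 RPM. The blood list lay at 178 to 346 and 219 to 256.5 RPM in control and cKO caput. In control and cKO cauda that list lay at 2839 to 4666 and 2147 to 4663 RPM. The part of these lists in the difference was not tested. In Defb41 cauda the 4 tested had log2 differences of 0.12 (Mir320), −0.49 (Mir484), −0.52 (Mir1839) and −0.63 (Mir877), with 0 called by edgeR or DESeq2, against 6.36% of 1117 features. There 0 had an unadjusted p under 0.05 in edgeR and 1 in DESeq2.

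Along the epididymis, Mir320 and Mir484 were higher in cauda than in caput in Stra8 cKO. Mir320 rose from 5.30 ± 1.16 to 9.91 ± 4.91 RPM over 7 and 8 libraries (0.83 on the log2 scale, SE 0.28, edgeR adjusted p = 0.0104), and Mir484 from 3.03 ± 1.89 to 5.74 ± 0.941 RPM (1.03, SE 0.30, adjusted p = 0.00423). Both calls held in all 15 fits without 1 library, as 2 of 3 members against 64.2% of 1021 features. They came from the second library series, in which Mir320 changed by 1.33 and Mir484 by 1.74 (adjusted p = 0.000141 and 0.000163) and Mir1839 by 0.71 (adjusted p = 0.0199). Series 1 alone gave 0.22, 0.27 and −0.27, with none called. With the miRNA total only Mir484 was called (0.60, edgeR adjusted p = 0.0416), and Mir320 was at 0.41 (adjusted p = 0.102). The blood list lay at 71.3 to 102.5 RPM in caput and 323 to 1397 RPM in cauda, and the muscle list at 31600 to 149900 and 179300 to 435500 RPM; their part was not tested.

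Stra8 controls had log2 differences of 0.54 for Mir320 (adjusted p = 0.157), 0.61 for Mir484 (adjusted p = 0.126) and 0.22 for Mir1839, with 0 of 3 called by edgeR, 0 at an unadjusted p under 0.05 and 2 called by DESeq2, against 42.2% of 1054 features. In series 2 alone Mir320 (0.89) and Mir484 (1.16) were called, and in series 1 alone neither. The mirtrons did not pass the filter, and with no filter on low counts Mir877 (−2.36), Mir1224 (−2.83) and Mir702 (−2.89) were called as lower in cauda (edgeR adjusted p = 0.0254, 0.0447 and 0.0225). In control caput and control cauda Mir877 lay at 0.244 to 2.51 and 0 to 0.768 RPM. Mir1224 lay at 0.362 to 5.67 and 0 to 0.896 RPM, and Mir702 at 0 to 3.04 and 0 to 0.560 RPM. For each of these mirtrons the segments overlap. The share of all features called in the fit with no filter is not given here. The difference between the genotypes in the change from caput to cauda was not tested.

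In Defb41 controls 0 of 5 members were called by edgeR (0% of 1298 features, with 360 at an unadjusted p under 0.05, none of them a member) and 0 by DESeq2. In Defb41 cKO 0 of 6 were called (1.41% of 1203), with 5 at an unadjusted p under 0.05 in edgeR, 0 called by DESeq2 and all 6 log2 differences negative, from −0.39 for Mir1839 to −2.85 for Mir877. The replicate numbers pair those libraries, and with the number as a block 3 were called, against 25.6% of features: Mir877 (−2.79, adjusted p = 0.0127), Mir484 (−1.68, adjusted p = 0.041) and Mir320 (−1.39, adjusted p = 0.0474). Without caput replicate 1, Mir877, Mir484, Mir320 and Mir702 were called in the fit with no block.

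Across the 16 group means, on log2(RPM + 1), the mirtrons moved alike. Pearson's r was 0.963 between Mir702 and Mir1224, 0.840 between Mir1224 and Mir877, and 0.834 between Mir702 and Mir877. Mir484 had an r of 0.749 with Mir877 and 0.707 with Mir320. Mir1839 had a negative r with each of the other 5, from −0.414 to −0.627. Of 164 miRNAs with a median group mean of at least 10 RPM, those most like Mir320 were Mir92b (0.928), Mir328 (0.896) and Mir423 (0.890), and those most like Mir1839 were Mir101b (0.813), Mir30a (0.802) and Mir30f (0.739). These are descriptions over 16 groups that share libraries, depth and line. The r values of Mir877, Mir1224 and Mir702 rest on low levels, with medians of 1.71, 0.776 and 0.511 RPM. Mir484, at 8.02 RPM, was also under that limit of 10 RPM.

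Messenger RNA of the epididymis, given as TPM (a length-corrected share of transcripts), shows whether host and pathway genes were present. Dgcr8 itself was at 1.44 ± 0.587 TPM in control and 1.48 ± 0.837 TPM in cKO caput of the Stra8 line (n = 3 and 3), and at 2.23 ± 0.698 and 1.28 ± 0.494 TPM in cauda (n = 4 and 4). These are values of the whole gene and do not separate the floxed part. In Defb41 caput, Dgcr8 was at 1.21 ± 0.337 TPM in control and 2.41 ± 0.648 TPM in the libraries labelled cKO (n = 4 and 4). Those cKO libraries held summed caput marker genes of 77.6 to 174 TPM against 63890 to 86370 TPM in controls, which goes against their caput label. The libraries labelled Defb41 control cauda held 8130 to 35890 TPM of them, against 89.9 to 259 TPM in Stra8 control cauda. The segment labels of the line are thus in doubt, so Defb41 mRNA was not tested.

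Among the hosts, Abcf1, a protein that acts in translation initiation and holds Mir877, was at 20.8 to 28.6 TPM in mean over the 4 Stra8 groups. Plod3, a collagen-modifying enzyme that holds Mir702, was at 11.1 to 28.1 TPM. Vwa5b2, which holds Mir1224, was near 0 in all 8 mRNA groups, with means of 0.0133 to 0.268 TPM, although Mir1224 reads were present in libraries of the same tissues. TPM is a level per length, so it can be compared between these genes.

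Of 21 listed host and pathway genes, 17 passed the filter of at least 1 TPM. Genotype changed 0 of 17 in Stra8 caput (0.824% of 11776 genes called) and 0 of 17 in Stra8 cauda (0% of 11527 genes, with 1461 at an unadjusted p under 0.05) by limma. At an unadjusted p under 0.05 there were 3 listed genes in each. Replicate numbers pair these libraries, and with the number as a block limma called 322 and 295 genes in all, again with 0 listed genes in either. At an unadjusted p under 0.05 the block fits counted 4 listed genes in caput and 10 in cauda, against 2765 and 3295 genes in all. The largest listed differences were 0.79 for Ago1 in caput and −0.50 for Dgcr8 in cauda (SE 0.21, limma adjusted p = 0.385), on log2(TPM + 1), a scale that understates changes of low genes.

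Between cauda and caput of Stra8 controls, 3 of 17 listed genes were called, against 39.8% of 12115 genes. Plod3 was at 22.2, 30.5 and 31.8 TPM in caput and 9.85, 10.9, 11.7 and 20.7 TPM in cauda, all cauda libraries below all caput libraries. It fell by 1.07 on the log2(TPM + 1) scale (SE 0.26, limma adjusted p = 0.00795). Polr3d, a subunit of RNA polymerase III beside Mir320, was at 30.6 ± 1.16 TPM in caput and 20.7 ± 5.03 TPM in cauda (−0.57, limma adjusted p = 0.0398), a call kept only in the fit without cauda replicate 4 among 7 fits without 1 library. Xpo5, which exports most miRNA precursors, rose from 13.8 ± 1.54 to 25.1 ± 3.49 TPM (0.81, limma adjusted p = 0.00455). The debranching enzyme Dbr1 (0.20) and Exportin 1 (Xpo1, 0.64, adjusted p = 0.116) were not called.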

How the data were processed

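Small RNA counts, deposited by the authors as whole reads per feature, came from 40 sperm and 41 tissue libraries with a group, made with an Illumina TruSeq small RNA kit per the labels' protocols. Per the submitters' processing notes Bowtie2 and RSEM were used (no versions stated), and the labels give mm10. TPM of epididymal mRNA were computed and deposited by the authors, so depth is unknown there. The class table deposited by the authors, also counts, gave a second miRNA total.

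Counts were tested with edgeR 4.0.16 (R 4.3.3), quasi-likelihood, each library scaled by its table total without a composition factor. A feature was tested if at least n libraries had 10 counts or more, n being the size of the smaller group. A term for library series was fitted where there are 2. TPM were tested with limma 3.58.1 (trend, robust) on log2(TPM + 1), on genes of at least 1 TPM. Benjamini-Hochberg adjustment ran over all features, at 0.05. Errors after ± are SDs, and those of log2 values SEs. DESeq2 1.42.0, TMM, the miRNA total, no filter, other pseudocounts, 1 series, a replicate block and leaving out libraries were alternatives. The small RNA test was tested on simulated data. Named genes are all 6 members, the called or largest listed genes and the 3 miRNAs most alike.

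Replicate numbers were taken to pair libraries where every pair's deviations correlated above 0.1. That held in 3 comparisons: Defb41 cKO cauda against caput small RNA (r 0.121 to 0.204), and Stra8 genotype in caput mRNA (0.217 to 0.466) and cauda mRNA (0.339 to 0.486), from the data and not the labels. No libraries of a group agreed within sampling noise. Members and gene lists were chosen with earlier results of these data known.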

Additional observations from a re-analysis of the deposited data

Results flagged for a closer look

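A library far from the others of its group was found in 19 of 89 member values and in 1 of 42 listed gene values. The limit used would flag about 1 in 20 values if they were normal and independent. RPM is skewed, library series were pooled and the members share libraries, so these counts cannot be set against that share. Where all other libraries had 0, 1 read was enough. In Defb41 cKO cauda sperm, replicate 5 stood above the other 7 libraries in Mir320 (609 against 14.6 to 287 RPM), Mir484 (206 against 6.39 to 59.6 RPM) and Mir1839 (263 against 14.1 to 94.5 RPM). Replicate 6 of that group stood above the rest in all 3 mirtrons, namely Mir877 (33.2 against 0.362 to 14.5 RPM), Mir1224 (40.7 against 1.21 to 13.8 RPM) and Mir702 (152 against 0.241 to 20.9 RPM). In the controls of that tissue, replicate 5 was high in Mir1224 (33.0 against 0.853 to 14.2 RPM) and Mir702 (28.6 against 0.190 to 13.1 RPM), and replicate 8 in Mir1839 (105 against 14.7 to 55.1 RPM). All of these belong to the second library series.

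In Defb41 testis sperm, control replicate 1 was high in Mir320 (70.1 against 20.01 to 25.1 RPM) and Mir877 (11.8 against 2.66 to 3.06 RPM), and cKO replicate 1 in Mir484 (25.8 against 17.1 to 18.3 RPM). In Stra8 sperm 1 library had reads of a mirtron where the others had 0, for Mir702 in cKO testis sperm replicate 4 (0.672 RPM) and cKO cauda sperm replicate 1 (0.0981 RPM), and for Mir1224 in control cauda sperm replicate 4 (0.306 RPM) and cKO cauda sperm replicate 2 (0.135 RPM).

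In tissue, Mir1839 was low in Defb41 control cauda replicate 1 (58.9 against 104 to 111 RPM), and Mir320 was low in Stra8 cKO caput replicate 3 (2.83 against 5.27 to 6.46 RPM). The share of miRNA reads held by the 6 was high in Stra8 cKO caput replicate 4 (0.0973% against 0.0255% to 0.0561%). Plod3 was high in Stra8 control cauda mRNA replicate 4 (20.7 against 9.85 to 11.7 TPM).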

How the results depend on the processing

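Of 1363 alternative values for 85 member results, 1299 stayed on their side of the threshold (145 of them with the other sign, neither value being called), 33 gained a call, 23 lost one and 8 reversed. Of 510 for 51 listed gene results, 502 stayed (21 with the other sign), 1 gained, 7 lost and 0 reversed. The number of members called moved as follows, and the cause was not tested. The share of all features called is not given for every setting, so not every number has its background beside it. For genotype in Defb41 cauda sperm, 0 became 2 with TMM and 3 with DESeq2. From testis to cauda sperm, Stra8 controls went from 1 to 2 with TMM and DESeq2, with log2 values of Mir320 at 0.036 and 0.045, Mir1839 at 1.40 and 1.43, and Mir484 at 1.79 and 1.81. Stra8 cKO went from 0 to 1 with TMM or no filter and to 2 with the miRNA total or DESeq2. There Mir1839 was at −0.68 with the miRNA total and Mir484 at 1.34 with DESeq2. Defb41 controls went from 1 to 0 with TMM, and Defb41 cKO from 2 to 1 with TMM, no filter, DESeq2 or the replicate block and to 5 with the miRNA total. From caput to cauda, Stra8 controls went from 0 to 2 with TMM, DESeq2 or series 2 only and to 3 with no filter. Stra8 cKO went from 2 to 1 with the miRNA total and to 0 with series 1 only, and Defb41 cKO from 0 to 2 with the miRNA total and 3 with the replicate block. Leaving out each library in turn gave 0 to 1 calls from testis to cauda sperm in Stra8 cKO and Defb41 controls and 0 to 2 in Defb41 cKO. It gave 0 to 1 from caput to cauda in Defb41 controls (1, Mir702, without caput replicate 1 or 3), 0 to 4 in Defb41 cKO, 0 to 1 for line by genotype and 2 to 3 for the listed genes. The replicate block changed no other number of members called. With all reads as denominator, the share of the 6 was 0.0215% and 0.0118% in Stra8 testis sperm control and cKO, 0.0106% and 0.0101% in Stra8 cauda sperm, 0.0104% and 0.0158% in Defb41 testis sperm, 0.0155% in Defb41 control cauda sperm, 0.0219% in Defb41 cKO cauda epididymis, and 0.0269% and 0.0255% in Stra8 cauda epididymis. For the 2 Stra8 caput to cauda results a fit with no series term, chosen after seeing the data, moved no call. Mirtrons with under 10 reads in most libraries allow no firm statement at this depth.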

Other observations

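A single Stra8 caput library has a title and a genotype label that disagree, and it entered no group. It held Mir320 at 3.51, Mir484 at 2.34, Mir877 at 2.34, Mir1839 at 204.5, Mir1224 at 1.03 and Mir702 at 1.32 RPM.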
